A study of Mus musculus with 18 samples.

Results

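Il4, Il5, Il13 and Rad50 are neighbours in the Th2 cytokine locus of mouse chromosome 11, and their RNA levels were followed here in 18 libraries of CD4 T cells. The members were taken by symbol from the table of expression values, in which all 4 were measured among 12547 genes. Il4, Il5 and Il13 are the cytokine genes of the locus, and Rad50 is the DNA repair gene that lies between Il13 and Il5. Their identifiers in the deposited table are ENSMUSG00000000869.13 for Il4, ENSMUSG00000036117.3 for Il5, ENSMUSG00000020383.2 for Il13 and ENSMUSG00000020380.17 for Rad50.

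The cells were naive mouse CD4 T cells, either lacking Id3 (KO) or wild type (WT), and each genotype was sequenced in 3 sets that the labels number 3, 5 and 6, with 3 libraries per group. All 6 groups, the WT controls included, had received CD3 and CD28 antibodies on microbeads as the activating signal and were kept in IMDM with 10% FBS, IL2, IL12 and an antibody to IL4. It is not labelled what distinguishes the sets, whether the replicates came from different mice, or which promoter or allele underlies the knockout. The p-values below therefore measure the spread between these samples, which may be technical. The authors' deposited table names its contrasts with 24 for set 3 and with 96 for sets 5 and 6, and gives no unit.

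IL-4, IL-5 and IL-13 are the signature cytokines of type 2 helper T cells. IL-4 drives B cells to make IgE and promotes Th2 differentiation itself, IL-5 supports eosinophils, and IL-13 acts on epithelium, smooth muscle and macrophages. These cytokine genes are regulated together in Th2 cells through a locus control region inside Rad50, with GATA3, STAT6, MAF, NFAT and AP-1 proteins acting at the locus, whereas the IL12 and anti-IL4 used here favour Th1 cells, in which the locus is usually kept silent. Id3 dimerizes with E proteins, and these dimers do not bind DNA.

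The start regions of the cytokine genes are printed here because they are the stretches on which the transcription of the members begins. The windows run from 250 bases before the annotated start to 30 bases after it, from RefSeq with coordinates on GRCm38.p6. They are chr11:53618636-53618915 on the minus strand for Il4, chr11:53634673-53634952 on the minus strand for Il13 and chr11:53720544-53720823 on the plus strand for Il5. Each is written 5′ to 3′, and capitals mark GGAAA, the core that NFAT proteins bind, and the GATA hexamer AGATAA, also with T in first or G in last place, all on either strand.
Il4: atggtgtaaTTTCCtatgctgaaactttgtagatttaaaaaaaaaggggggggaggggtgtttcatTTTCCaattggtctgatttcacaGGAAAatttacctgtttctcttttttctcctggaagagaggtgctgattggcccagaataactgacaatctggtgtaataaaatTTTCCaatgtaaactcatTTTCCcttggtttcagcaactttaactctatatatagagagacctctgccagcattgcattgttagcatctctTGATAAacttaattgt
Il13: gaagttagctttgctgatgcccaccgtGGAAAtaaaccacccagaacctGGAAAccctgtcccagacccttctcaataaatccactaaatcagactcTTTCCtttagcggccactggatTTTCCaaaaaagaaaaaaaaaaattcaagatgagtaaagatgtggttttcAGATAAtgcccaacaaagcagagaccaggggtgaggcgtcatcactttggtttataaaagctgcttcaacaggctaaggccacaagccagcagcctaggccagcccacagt
Il5: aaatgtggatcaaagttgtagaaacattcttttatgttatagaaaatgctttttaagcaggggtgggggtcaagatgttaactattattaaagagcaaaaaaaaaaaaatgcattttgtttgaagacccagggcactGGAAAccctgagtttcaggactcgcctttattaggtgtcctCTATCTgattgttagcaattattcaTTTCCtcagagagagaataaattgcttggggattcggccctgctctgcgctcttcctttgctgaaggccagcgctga

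GGAAA or its complement occurred 5 times in the Il4 window, 4 times in the Il13 window and 2 times in the Il5 window. Each window held 1 GATA hexamer. CANNTG, the E-box that E proteins bind, was searched on both strands and occurred 1 time in the Il4 window, as CAATTG, overlapping a GGAAA match on the other strand, and was not found in the other windows. TTCNNNNGAA, a form of the STAT6 motif, occurred 1 time, in the Il4 window, overlapping a GGAAA match. Of 32851 RefSeq windows of the same length, 59.2% held GGAAA, 28.7% a GATA hexamer, 70.1% CANNTG and 6.5% TTCNNNNGAA. Matches of letters do not show that a factor binds.

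The values are the authors' deposited log2 expression values, equalized within each group as described under the processing, so the depth of a library is unknown. In each library 149 to 350 genes shared the lowest value, which was 1.0 to 1.11. Levels of different genes are not read as relative abundance, because the values are not scaled per gene length. Where a gene is called the highest of a list, or a list is summed, this holds for the deposited values only. Each group had 1 median over all genes, from 9.18 to 9.66, and the median KO minus WT difference over all genes was -0.07, 0.39 and 0.42 in sets 3, 5 and 6. Id3 itself lay between 1.0 and 5.63 in the KO libraries (median 3.35) and between 8.85 and 10.08 in the WT libraries (median 9.49), with no overlap. Of the T cell markers fixed for this tissue, 7 of 10 were measured, and the group means of Cd4 ran from 11.69 to 13.22 and those of Cd3e from 12.57 to 14.00.

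Il4, which encodes the cytokine that starts Th2 responses, stood at 11.82, 10.34 and 10.63 in replicates 1, 2 and 3 of the KO cells of set 3. In WT cells of set 3 it stood at 6.78, 7.06 and 4.80. Every KO library lay above every WT library, and WT replicate 3 lay well below the other two. In set 5, Il4 was at 11.23, 10.54 and 10.70 in KO cells and at 8.99, 8.79 and 8.69 in WT cells. Set 6 gave 11.86, 11.44 and 11.81 in KO cells and 9.18, 9.89 and 9.5 in WT cells. The KO libraries ran from 10.34 to 11.86, and those of set 3 overlapped those of sets 5 and 6, which did not overlap each other. The WT libraries of set 3 were far below those of sets 5 and 6.

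Il13, whose product acts on airway and gut epithelium, was at 13.69, 11.59 and 12.52 in KO cells of set 3. The WT cells of that set had 7.28, 8.30 and 7.34. In set 5 its KO values were 8.81, 8.47 and 8.86 and its WT values 5.33, 5.55 and 5.67. KO and WT libraries were apart in both sets, and both genotypes were lower in set 5 than in set 3. In set 6 the KO libraries had 10.88, 10.59 and 10.92 and the WT libraries 7.77, 7.87 and 7.79, again without overlap.

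Il5, the gene of the main eosinophil growth factor, had 9.84, 8.63 and 9.28 in KO cells of set 3 against 5.44, 5.37 and 4.60 in WT cells. In set 5 it was at 4.98, 5.05 and 4.63 in KO cells, and at 2.45, 1.79 and 1.70 in WT cells. The WT values of set 5 lay close to the lowest value of their libraries, 1.03 to 1.10, so the size of the difference there is uncertain. In set 6 the KO values were 7.91, 7.07 and 8.39 and the WT values 5.38, 5.34 and 4.98. As for the other cytokines, no KO library overlapped a WT library of its set. The share of all genes without such overlap is not given here. A lack of overlap alone thus does not set a gene apart from the others.

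Rad50, a subunit of the MRE11 complex that holds broken DNA ends, varied far less. Its KO values were 10.47, 10.33 and 10.58 in set 3, 10.29, 10.29 and 9.96 in set 5, and 10.68, 10.57 and 10.51 in set 6. Its WT values were 10.32, 10.32 and 10.25 in set 3, 10.06, 9.99 and 10.02 in set 5, and 10.06, 10.10 and 10.02 in set 6. The KO and WT libraries overlapped in set 5 and did not in sets 3 and 6, where the gap in set 3 was narrow.

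**Figure D1:**
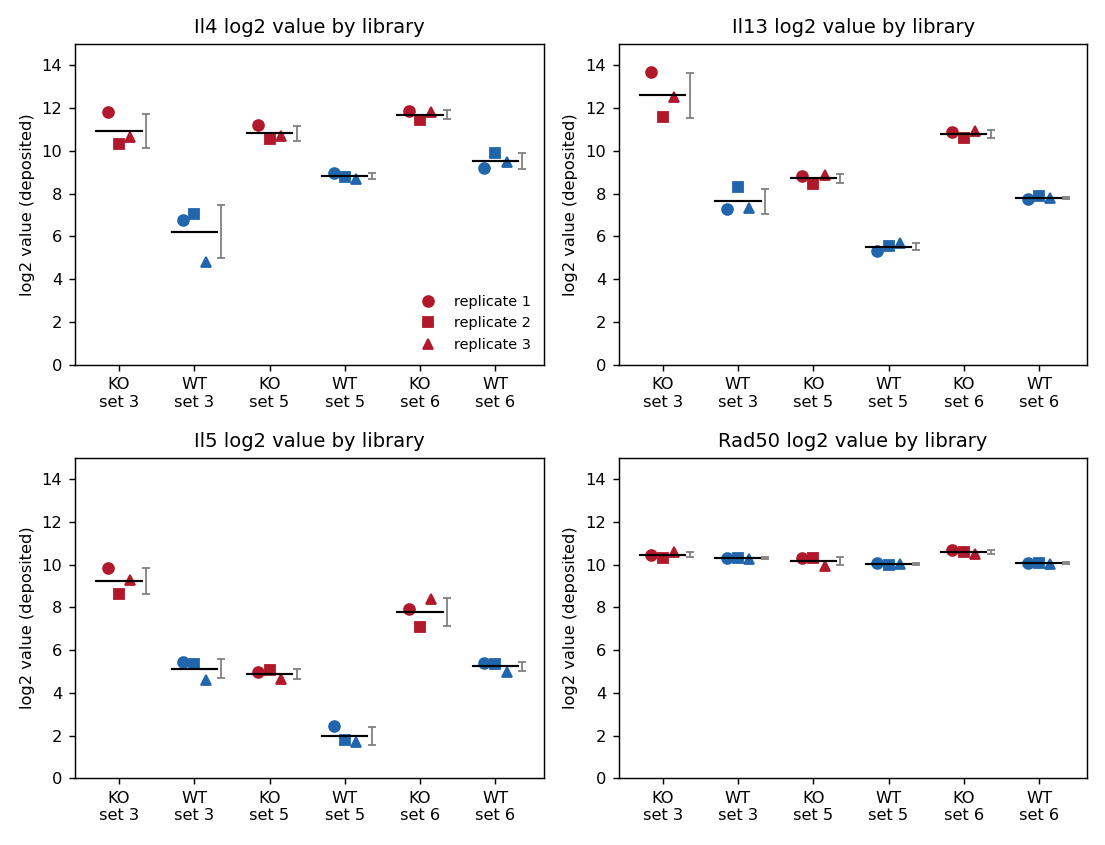
Deposited log2 values (y axis) of Il4, Il13, Il5 and Rad50 in each library, by group (x axis); red is KO, blue is WT, circle, square and triangle are replicates 1, 2 and 3, and grey bars give the group mean with its SD. The KO libraries of the 3 cytokine genes lie above the WT libraries of their set, and the Rad50 values lie between 9.96 and 10.68. How many of all genes are separated in this way is not given.

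All 3 cytokine genes were higher in KO cells in set 3, a count of 3 of 4 members, where 6.92% of all genes tested were called higher, 4.46% lower and 11.4% in either direction. Il4 differed by 4.71 (SE 0.46, 26.3-fold, 95% interval 3.74 to 5.69), with an adjusted p of 1.28e-05 in limma's moderated test with Benjamini-Hochberg adjustment over 12547 genes. Il13 differed by 4.96 (SE 0.37, 31.2-fold, adjusted p 9.46e-07 in limma), and Il5 by 4.11 (SE 0.36, 17.3-fold, adjusted p 5.18e-06 in limma). Ranked from the largest rise over all genes, Il13 stood at place 10, Il4 at 13 and Il5 at 26. Rad50 differed by 0.16 (SE 0.09, adjusted p 0.249 in limma), with a 95% interval from -0.03 to 0.35. Without KO replicate 1 of set 3, the highest library for all 3 cytokines, the differences were 4.27 for Il4, 4.42 for Il13 and 3.82 for Il5, and all 3 calls held.

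In set 5 the same 3 genes were called higher, where 50.1% of all genes were called higher, 8.08% lower and 58.2% in either direction, so the count alone is not unusual for that set. The sizes were 2.0 for Il4 (SE 0.46, 4.0-fold, adjusted p 0.00136 in limma), 3.20 for Il13 (SE 0.37, 9.18-fold, adjusted p 1.97e-06) and 2.90 for Il5 (SE 0.36, 7.48-fold, adjusted p 4.80e-06). Il13 stood at place 118, Il5 at 158 and Il4 at 485 among 12547 genes. Rad50 differed by 0.15 (SE 0.09, adjusted p 0.156), less than the median gene, and its direction depended on the scaling: it was -0.24 (adjusted p 0.0364) after each library's median was subtracted.

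All 4 members were called higher in set 6, where 53.9% of genes were called higher, 4.59% lower and 58.5% in either direction. Il4 differed by 2.18 (SE 0.46, 4.53-fold, adjusted p 0.000715 in limma), Il13 by 2.99 (SE 0.37, 7.93-fold, adjusted p 4.95e-06) and Il5 by 2.55 (SE 0.36, 5.87-fold, adjusted p 2.09e-05). Rad50 was higher by 0.53 (SE 0.09, adjusted p 0.000104), which is 0.11 above the median gene, and its call did not hold after median centring (0.12, adjusted p 0.331). Less that median, Il4, Il13 and Il5 were still higher by 1.76, 2.57 and 2.14, and after centring they were called higher in each of the 3 sets. The centred values called 7.29%, 24.9% and 18.8% of all genes higher and 3.28%, 24.7% and 18.5% lower in sets 3, 5 and 6.

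**Figure D2:**
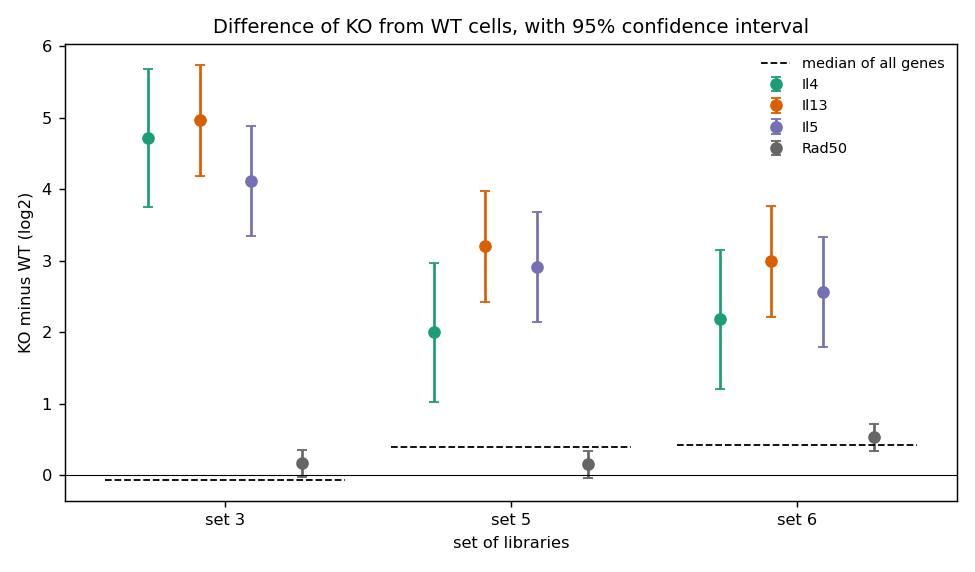
KO minus WT differences (y axis, log2) of the 4 members in sets 3, 5 and 6 (x axis), with 95% confidence intervals from the linear model. The dashed line of each set is the median difference over all genes. The intervals of Il4, Il13 and Il5 lie above that median in each set, and those of Rad50 lie near it.

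Whether the knockout difference itself changed between sets was tested as an interaction. From set 3 to set 5 it was smaller by 2.72 for Il4 (SE 0.65, adjusted p 0.00247 in limma) and by 1.76 for Il13 (SE 0.52, adjusted p 0.00986), where 6.82% of genes were called lower, 43.2% higher and 50% in either direction. The change for Il5 was -1.21 (SE 0.51, adjusted p 0.0602) and did not pass the test, but it passed with the replicate number as a block (adjusted p 0.046 in limma), after median centring (-1.63, adjusted p 0.0208) and without KO replicate 2 of set 3 (-1.52, adjusted p 0.0216). That for Rad50 was -0.01 (SE 0.13, adjusted p 0.946). From set 3 to set 6 the changes were -2.54 for Il4 (SE 0.65, adjusted p 0.00423 in limma), -1.97 for Il13 (SE 0.52, adjusted p 0.00506) and -1.56 for Il5 (SE 0.51, adjusted p 0.0190). In that comparison 4.11% of genes were called lower, 46.2% higher and 50.3% in either direction. The Il5 change missed the threshold when KO replicate 1 of set 3 (-1.27, adjusted p 0.0582), KO replicate 2 of set 6 (-1.20, adjusted p 0.0551) or WT replicate 3 of set 3 (-1.30, adjusted p 0.0514) was left out. Rad50 moved the other way, by 0.36 (SE 0.13, adjusted p 0.0246), and reversed to -0.07 after median centring. Its call was lost without KO replicate 2 of set 3 (adjusted p 0.0621), KO replicate 1 of set 6 (adjusted p 0.0623) or WT replicate 3 of set 6 (adjusted p 0.0521).

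Between sets 5 and 6 the knockout differences did not pass the test for any member, with 95% intervals of the change from -1.19 to 1.55 for Il4, -1.31 to 0.89 for Il13, -1.44 to 0.74 for Il5 and 0.11 to 0.64 for Rad50. In this comparison limma called 0 of 12547 genes (0%), and 1320 genes had an unadjusted p under 0.05. The interactions share libraries with each other and with the comparisons above.

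The levels within a genotype separate Il4 from its neighbours. From set 3 to set 5, Il13 fell by 3.89 in KO cells (adjusted p 7.39e-08 in limma) and by 2.12 in WT cells (adjusted p 8.41e-05). Il5 fell by 4.37 in KO cells (adjusted p 1.69e-08) and by 3.15 in WT cells (adjusted p 1.13e-06). Il4 instead rose by 2.61 in WT cells (adjusted p 9.96e-05) and differed by -0.11 in KO cells (95% interval -1.08 to 0.86, adjusted p 0.840). In these set comparisons 73.2% of all genes were called in KO cells, of which the lower ones were 23.4% of all genes. In WT cells 67.6% of all genes were called, 38.3% lower and 29.3% higher. Rad50 was lower in set 5 than in set 3 by 0.28 in KO cells (adjusted p 0.00958) and by 0.27 in WT cells (adjusted p 0.0138). The KO call of Rad50 did not hold without KO replicate 3 of set 3 (-0.22, adjusted p 0.0528) or KO replicate 3 of set 5 (-0.17, adjusted p 0.0690), nor with the compared groups alone (adjusted p 0.0746).

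From set 5 to set 6 fewer genes were called, 12% in KO cells (9.93% higher) and 3.37% in WT cells (3.01% higher). Il13 rose by 2.08 in KO cells (adjusted p 0.00276 in limma) and by 2.29 in WT cells (adjusted p 0.00288). Il5 rose by 2.90 in KO cells (adjusted p 0.000569) and by 3.25 in WT cells (adjusted p 0.000234), places 22 and 10 among all genes. Il4 differed by 0.88 in KO cells (95% interval -0.09 to 1.85, adjusted p 0.223) and by 0.70 in WT cells (95% interval -0.27 to 1.67, adjusted p 0.474), neither past the test. Rad50 rose by 0.41 in KO cells (adjusted p 0.00909) and differed by 0.03 in WT cells (adjusted p 0.900), a direction that flipped with the scaling. The KO call of Rad50 was lost with the compared groups alone (adjusted p 0.0862), and none of its 3 calls between sets passed against a minimum fold of 1.2 (adjusted p 0.542 to 0.658).

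Ordered by group means, Il13 ran from KO of set 3 (12.60) through KO of set 6 (10.80), KO of set 5 (8.71), WT of set 6 (7.81) and WT of set 3 (7.64) to WT of set 5 (5.52), and only the WT libraries of sets 6 and 3 overlapped their neighbours in this order. For Il5 the order was KO of set 3 (9.25), KO of set 6 (7.79), WT of set 6 (5.24), WT of set 3 (5.14), KO of set 5 (4.89) and WT of set 5 (1.98), and WT of set 6, WT of set 3 and KO of set 5 overlapped in turn. KO cells of set 5 thus held Il5 at about the level of WT cells of the other sets. Il4 ran from KO of set 6 (11.70) over KO of set 3 (10.93) and KO of set 5 (10.82), which overlapped in turn, to WT of set 6 (9.52), WT of set 5 (8.82) and WT of set 3 (6.22). Rad50 ran from 10.59 in KO of set 6 to 10.03 in WT of set 5, and the only neighbours without overlap were KO and WT of set 3.

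The balance among the cytokines can be read inside each library, where a constant scaling of a whole library cancels. The equalization within each group is not a constant scaling and may not cancel. The difference Il4 minus Il13 is used only for its change between groups, and this measure was chosen after the values were seen. It was -1.87, -1.25 and -1.89 in KO cells and -0.50, -1.24 and -2.54 in WT cells of set 3. In set 5 it was 2.41, 2.07 and 1.84 in KO cells and 3.66, 3.25 and 3.02 in WT cells. Set 6 lay between, with 0.98, 0.85 and 0.88 in KO cells and 1.41, 2.02 and 1.71 in WT cells. All libraries of set 5 lay above all libraries of set 3, and within each genotype those of set 6 lay between the other sets.

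Averaged over the genotypes, Il4 minus Il13 changed by 4.25 from set 3 to set 5 and by -1.40 from set 5 to set 6, and Il4 minus Il5 by 5.01 and -2.29. Il13 and Il5 stayed closer to each other, with changes of 0.75 and -0.89 in Il13 minus Il5. Averaged over the sets, the KO minus WT differences were -0.75 for Il4 minus Il13, -0.23 for Il4 minus Il5 and 0.53 for Il13 minus Il5. These values are a description with no test, because the measure was prompted by the levels above.

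**Figure D3:**
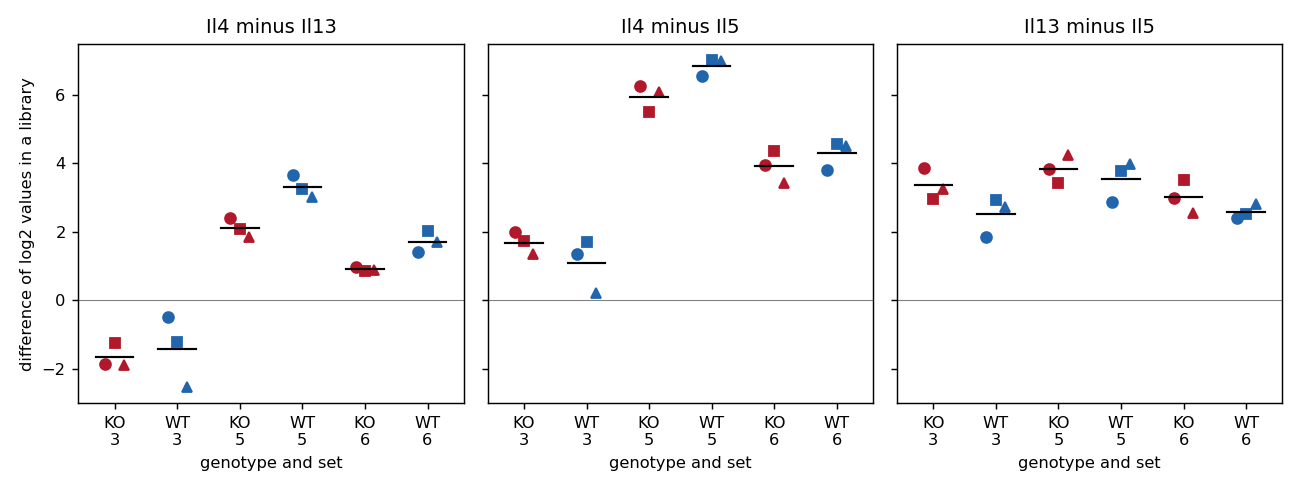
Within-library differences of log2 values (y axis) for Il4 minus Il13, Il4 minus Il5 and Il13 minus Il5, by group (x axis), 1 point per library with red for KO and blue for WT. Il4 minus Il13 is below 0 in all libraries of set 3 and between 1.84 and 3.66 in set 5, whereas Il13 minus Il5 lies between 1.84 and 4.23 in all libraries.

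Replicates of a group varied together in KO cells of sets 3 and 6, but not in every group. In KO cells of set 3, replicate 1 was the highest and replicate 2 the lowest library for Il4, Il13 and Il5. In KO cells of set 6, replicate 2 was the lowest for all 3, whereas the KO libraries of set 5 had no common order. The WT libraries had no common order in any set, and in set 5 WT replicate 1 was the highest for Il4 and the lowest for Il13. Groups with a wide spread weigh most in the r values that follow, such as KO cells of set 3 (SD 0.78 for Il4, 1.05 for Il13 and 0.61 for Il5). Pearson's r of the deviations from group means was 0.675 for Il4 with Il5, 0.646 for Il4 with Il13 and 0.535 for Il5 with Il13. For Rad50 it was 0.406 with Il5, 0.277 with Il4 and 0.167 with Il13. Over the 18 libraries, as a description with groups and scaling shared, Pearson's r was 0.965 for Il5 with Il13, 0.627 for Il4 with Il13 and 0.519 for Il4 with Il5. Rad50 had 0.80 with Il5, 0.77 with Il13 and 0.401 with Il4.

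By the same measure over the 18 libraries, the genes most like Il13 were Zbtb16 (r 0.968), the gene of the PLZF factor of innate-like T cells, Ell2 (0.954), Jag1 (0.952), a Notch ligand, Efhd2 (0.940) and Ccr4 (0.931), a chemokine receptor of Th2 cells. For Il5 they were Serpina3g (0.930), Zbtb16 (0.929), Ttc39c (0.919), Plek (0.912) and Efhd2 (0.909). Those most like Il4 included Ryk (0.934), Obsl1 (0.932), St6galnac2 (0.919) and H1f10 (0.908), none of them among the top 5 of Il5 or Il13. The lowest values were those of Lef1 (-0.884), Tbl1x (-0.880) and Zbtb8a (-0.877) with Il4, of Sfn (-0.866), Jaml (-0.860) and Slc25a27 (-0.847) with Il5, and of Sfn (-0.926), Hmgn2 (-0.881) and Slc25a27 (-0.879) with Il13. Ranked by Spearman's rho instead, 3 of these 5 genes stayed in the top 5 of Il13, 1 of 5 for Il5 and 0 of 5 for Il4.

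The genes around the cytokines were read next, in the order of the annotation. Within 500 kb of the span from Il4 to Il5 the annotation holds 44 genes, of which 17 were measured, 13 of them not members. In set 3, 2 of these 13 were called higher in KO cells and 0 lower, beside 6.92% and 4.46% of all genes. Their median difference was -0.11 against -0.07 over all genes. Septin8 rose by 0.93 (SE 0.15, adjusted p 0.001 in limma) and Kif3a, a kinesin motor gene next to Il4, by 0.90 (SE 0.17, adjusted p 0.0025). Kif3a lay at 8.28 to 8.81 in KO and 7.41 to 8.04 in WT libraries, without overlap. No other measured neighbour passed the test in set 3, Irf1 included, which lies beyond Il5 (-0.40, adjusted p 0.0753).

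In set 5, 7 of the 13 neighbours were called higher and 2 lower, with a median of 0.34 against 0.39 over all genes. In set 6, 7 were called higher and 1 lower, with a median of 0.47 against 0.42. Of all genes 50.1% and 53.9% were called higher in these sets, so the count of higher neighbours was near the background. Irf1, an interferon response factor, rose by 1.96 in set 5 (adjusted p 2.69e-08 in limma) and by 1.89 in set 6 (adjusted p 5.68e-08). Septin8 rose by 1.16 and 1.74, Kif3a by 0.92 and 0.83 and the elongation factor gene Aff4 by 1.14 and 0.92 in sets 5 and 6. P4ha2, a collagen prolyl hydroxylase gene, fell by 2.54 in set 5 and by 2.02 in set 6. After median centring 5 of the 13 were higher and 2 lower in set 5, and 3 higher and 2 lower in set 6. The shares of all genes were then 24.9% and 18.8% higher and 24.7% and 18.5% lower. Irf1, Septin8 and Aff4 stayed higher in both sets, P4ha2 lower in both, and Kif3a was called in set 5 alone (0.41 in set 6). The fall of P4ha2 in set 6 missed the test without KO replicate 1, KO replicate 3 or WT replicate 3 of that set.

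A wider list of genes of this cytokine cluster also held Csf2 and Il3, cytokine genes farther along the chromosome, and Acsl6. In set 3 Csf2 rose by 4.03 (SE 0.43, adjusted p 3.36e-05 in limma) and Il3 by 3.96 (SE 0.74, adjusted p 0.00256), and Acsl6 fell by 1.84 (adjusted p 0.00124). Csf2 did not pass in set 5 (-0.88, adjusted p 0.0919) or set 6 (-0.22, adjusted p 0.683), and Il3 was at -1.53 (adjusted p 0.0862) in set 5 and rose by 2.13 (adjusted p 0.0208) in set 6. After median centring Csf2 and Il3 were called lower in set 5 (-1.27, adjusted p 0.0227, and -1.92, adjusted p 0.0403), and the rise of Il3 in set 6 was lost (1.72, adjusted p 0.0786). Of 15 measured genes of that list, 4 were higher and 1 lower in set 3, 6 and 3 in set 5, and 8 and 2 in set 6. Of all genes 6.92%, 50.1% and 53.9% were called higher in these sets, so the higher counts of sets 5 and 6 were not above the background. After centring the counts of the list were 4 higher and 5 lower in set 5, and 3 and 3 in set 6. Over all genes 24.9% and 18.8% were then called higher and 24.7% and 18.5% lower.

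**Figure D4:**
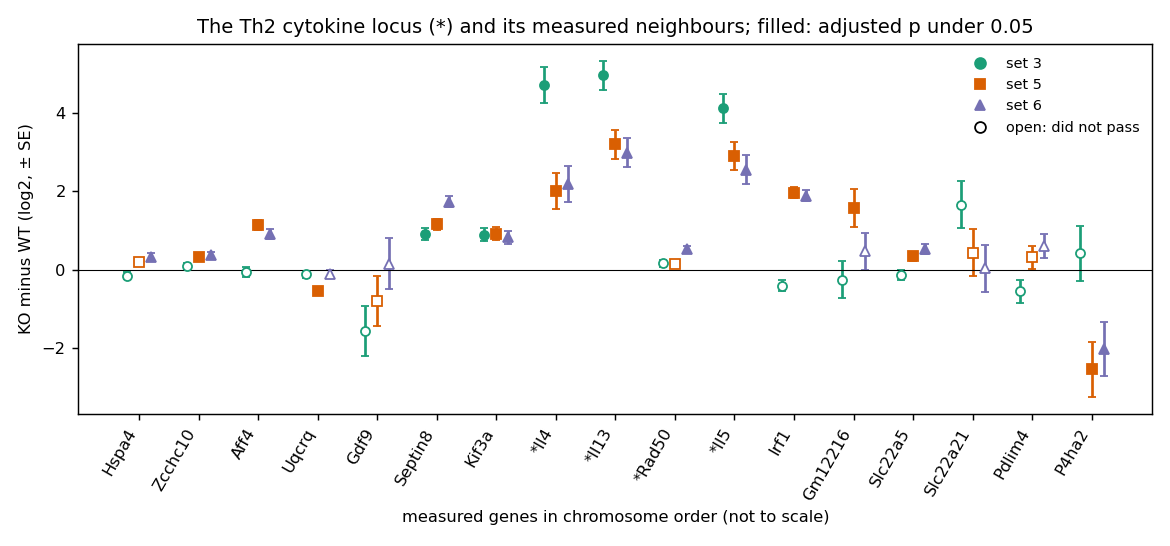
KO minus WT differences (y axis, log2, with SE) of the 17 measured genes around the cytokines, in chromosome order without distances (x axis), for sets 3, 5 and 6; filled points passed the test and open points did not. In set 3 the large differences sit at Il4, Il13 and Il5, with Rad50 between Il13 and Il5 near 0.

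The regulators known to act on the locus were taken as 18 activators and 14 repressors, all measured. In set 3, 5 activators were called higher and 2 lower, beside 6.92% and 4.46% of all genes. Their median difference was 0.18 against -0.07 over all genes. Maf, which binds the Il4 promoter, rose by 2.25 (SE 0.39, adjusted p 0.00153 in limma), and the Notch partner Rbpj by 1.36 (adjusted p 2e-05). Gata3, the master factor of Th2 cells, rose by 0.73 (SE 0.11, adjusted p 0.000715), from 10.69 to 11.02 in WT to 11.41 to 11.71 in KO libraries. Ikzf1 fell by 0.79 (adjusted p 1.09e-05) and Tcf7 by 0.91 (adjusted p 0.00256). Stat6, the factor activated by the IL-4 receptor, was at -0.13 (adjusted p 0.20), and Irf4 at 0.11 (adjusted p 0.515).

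In set 5 all 18 activators were called higher, with a median of 1.34 against 0.39 over all genes, and in set 6, 16 were called higher and 0 lower, with a median of 1.21 against 0.42, where 50.1% and 53.9% of all genes were called higher. After median centring these counts were 15 higher and 1 lower in set 5, and 12 higher and 3 lower in set 6. Over all genes 24.9% and 18.8% were then called higher and 24.7% and 18.5% lower. Gata3 rose by 2.52 and 2.40 in sets 5 and 6, Batf, an AP-1 factor, by 2.90 and 2.95, Irf4 by 2.18 and 1.83 and Maf by 3.67 and 1.87. The Gata3 levels were 12.43 to 12.81 in KO and 9.99 to 10.09 in WT libraries of set 5, and 12.28 to 12.58 against 9.92 to 10.11 in set 6. Stat6 was higher by 0.25 and 0.17, a direction that flipped after centring to -0.14 and -0.24. Ikzf1 was 0.18 higher in set 5 and was called lower after centring (-0.21).

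The knockout difference of Gata3 was larger than in set 3 by 1.79 in set 5 (adjusted p 1.06e-06 in limma) and by 1.67 in set 6 (adjusted p 2.86e-06), and that of Batf by 2.09 (adjusted p 6.28e-06) and 2.14 (adjusted p 8.45e-06). Il4 and Il13 moved the other way, with a larger difference in set 3 than in sets 5 and 6. No relation between these genes was tested.

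Of the 14 repressors, 2 were called higher in KO cells of set 3 (1 without KO replicate 1) and 0 lower, 7 higher and 3 lower in set 5, and 7 higher and 2 lower in set 6. Their median was 0.03, 0.32 and 0.38, against -0.07, 0.39 and 0.42 over all genes. Of all genes 6.92%, 50.1% and 53.9% were called higher and 4.46%, 8.08% and 4.59% lower in sets 3, 5 and 6. The count of higher repressors in sets 5 and 6 was thus near the background. Tbx21, which encodes T-bet, the master factor of Th1 cells, passed in none of the sets (-0.44, adjusted p 0.078; 0.36, adjusted p 0.0518; 0.16, adjusted p 0.399). Hlx, a partner of T-bet, rose by 1.96 in set 3 (adjusted p 0.0154), by 1.96 in set 5 and by 1.16 in set 6. Bcl6, a repressor in follicular helper cells, fell by 1.66 in set 5 (adjusted p 0.00133) and by 1.72 in set 6 (adjusted p 0.00107). Runx1 rose by 1.54 and 0.87 in these sets, and Riox2 rose by 0.53 in set 3 and fell by 0.65 and 0.53 in sets 5 and 6. After centring the repressors were called 4 higher and 3 lower in set 5 and 1 higher and 3 lower in set 6. Over all genes 24.9% and 18.8% were then called higher and 24.7% and 18.5% lower in these sets.

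**Figure D5:**
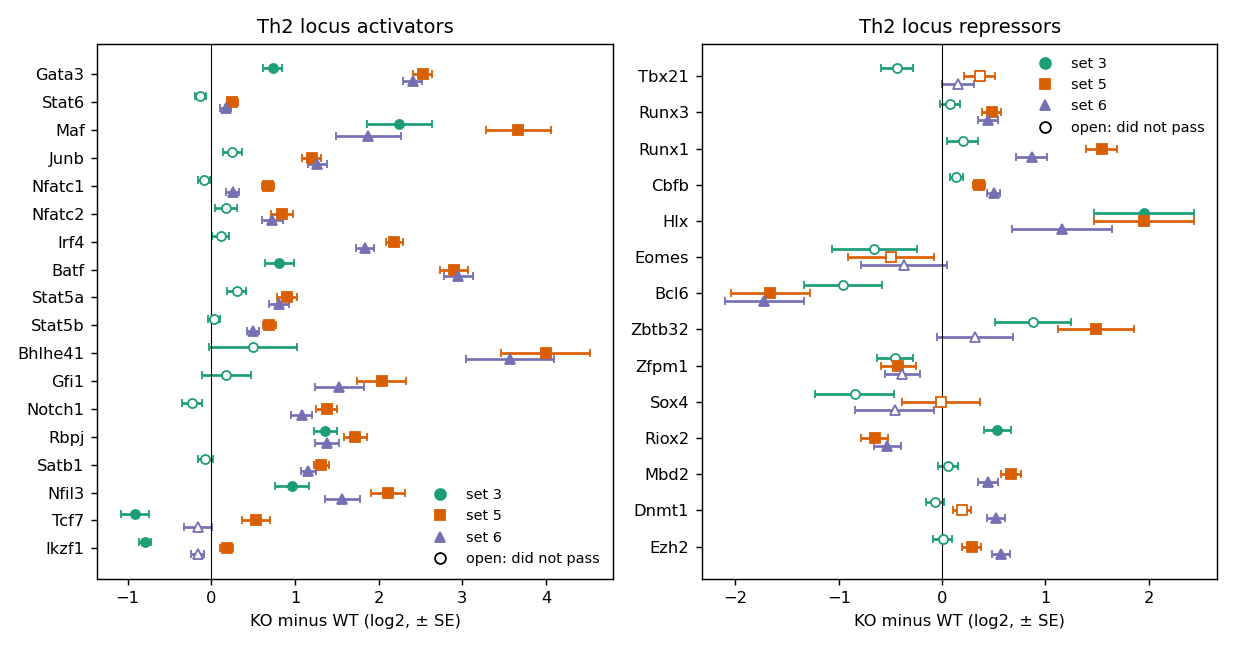
KO minus WT differences (x axis, log2, with SE) of the 18 activators (left) and 14 repressors (right) of the locus in sets 3, 5 and 6; filled points passed the test and open points did not. Most activators lie between 0.5 and 4 in sets 5 and 6 and near 0 in set 3.

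Among receptors and signalling genes of these cytokines, 13 of 15 were measured. In set 3, 3 were called higher and 0 lower, beside 6.92% and 4.46% of all genes. The 3 were Csf2rb (3.41, adjusted p 0.00793 in limma), the shared beta chain of the IL-3, IL-5 and GM-CSF receptors, its paralogue Csf2rb2 (3.39, adjusted p 5.95e-05) and Jak2 (0.50, adjusted p 0.0338). Reads of the near-identical Csf2rb and Csf2rb2 may have been split between them. Il4ra, the IL-4 receptor alpha chain, did not differ past the test in set 3 (-0.04, adjusted p 0.906) and rose by 1.92 in set 5 (adjusted p 1.34e-07) and by 1.72 in set 6 (adjusted p 5.71e-07). In those sets 9 and 8 of the 13 genes were called higher and 0 lower, beside 50.1% and 53.9% of all genes, with medians of 0.80 and 0.67 against 0.39 and 0.42. After centring 7 and 6 were called higher, beside 24.9% and 18.8% of all genes. Jak2 rose by 2.45 and 1.66, and Cish, a feedback inhibitor of STAT5 signalling, by 1.49 and 1.23. Il5ra was not among the measured genes.

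Of 14 surface and effector markers of Th2 cells, 13 were measured. In set 3, 8 were called higher and 0 lower, with a median difference of 1.9, and 5 were called without KO replicate 1 of that set. In set 5, 11 were higher and 1 lower, with a median of 2.57, and in set 6, 11 were higher and 0 lower, with a median of 1.98. Over all genes 6.92%, 50.1% and 53.9% were called higher in sets 3, 5 and 6, with medians of -0.07, 0.39 and 0.42. Il24 rose by 2.95, 4.34 and 3.81 in sets 3, 5 and 6, and Epas1, a hypoxia-inducible factor gene, by 2.69, 5.89 and 6.36. Ccr4 rose by 1.06, 1.03 and 0.90, and Il1rl1, the IL-33 receptor, rose by 2.75 in set 3 and was at -0.07 and -0.12 in sets 5 and 6 (adjusted p 0.911 and 0.846). Cd200r1 rose by 1.25 in set 3 and fell by 0.76 in set 5, the latter call being lost without KO replicate 2, WT replicate 1 or WT replicate 3 of set 5.

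A list of 14 other cytokine genes also held Csf2 and Il3, which are counted above. Of these 14, 11 were called higher in KO cells of set 3 and 0 lower, with a median of 2.64, and 7 without KO replicate 1 of set 3. In set 5, 7 were higher and 0 lower with a median of 1.02 (4 without KO replicate 3 of that set), and in set 6, 10 higher and 0 lower with a median of 1.5 (6 without WT replicate 3 of that set). The share of all genes called higher was 6.92%, 50.1% and 53.9% in sets 3, 5 and 6. After centring the counts were 4 higher and 3 lower in set 5, and 5 higher and 1 lower in set 6. The shares of all genes were then 24.9% and 18.8% higher and 24.7% and 18.5% lower. Ifng, the signature cytokine of Th1 cells, rose by 1.36, 1.05 and 0.81 in the order of sets 3, 5 and 6 (adjusted p 0.0108, 0.00895 and 0.0366 in limma), and its differences in sets 5 and 6 did not pass after centring (0.66 and 0.40). Il9 rose by 5.52 in set 3 (SE 1.09, adjusted p 0.00375) and Il10 by 2.91, 2.57 and 1.52.

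Rad50 was set beside the proteins it works with. Of 7 genes of the MRE11 complex and its partners, 6 were measured, and in set 3, 0 were called higher and 1 lower, Nbn, the nibrin subunit, at -0.32 (adjusted p 0.0257 in limma). In set 5, 3 were called higher and 0 lower (Nbn 0.35, Atm 0.73, Rint1 0.54), and in set 6, 4 were called higher, Rad50 among them (Nbn 0.51, Atm 0.80, Rint1 0.61). These counts were near the 50.1% and 53.9% of all genes called higher. Mre11a did not pass in any set (-0.11, -0.25 and 0.02). After centring 1 was higher and 3 lower in set 5, and 1 higher and 2 lower in set 6, beside 24.9% and 18.8% of all genes higher and 24.7% and 18.5% lower.

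Bulk libraries cannot tell more cells that express a gene from more RNA per cell, and they hold every cell type in the culture, so markers of other cells were read beside these results. Of 15 markers of mast cells and basophils, cells that also make IL-4 and IL-13, 12 were measured, and 9 were called higher in KO cells of set 3 and 0 lower, also without KO replicate 1. Of all genes 6.92% were called higher and 4.46% lower in set 3. The summed level of the mast cell and basophil markers was 10.05 to 10.19 in KO and 6.86 to 7.40 in WT libraries of set 3 on the log2 scale. Of the B cell markers 6 of 8 were higher in set 3 and 0 without KO replicate 1, with sums of 8.07 to 11.02 in KO and 6.32 to 7.53 in WT libraries. Their part in the cytokine differences of set 3 was not tested.

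In sets 5 and 6 the mast cell and basophil sums were lower in KO libraries (6.67 to 7.09 against 7.78 to 8.17 in set 5, and 6.89 to 7.71 against 7.85 to 8.08 in set 6). Tpsb2, Mcpt1 and Mcpt4, granule protease genes of mast cells, were at the lowest value in every library of these sets, and Fcer1a, the IgE receptor alpha chain, in every library of set 5. Of the 12 markers 1 was higher and 2 lower in set 5, and 2 higher and 2 lower in set 6. Over all genes 50.1% and 53.9% were called higher and 8.08% and 4.59% lower in these sets. Kit, a growth factor receptor, had the highest WT mean of the list in these sets and fell by 2.39 in set 5 (adjusted p 0.000251 in limma) and by 2.63 in set 6 (adjusted p 0.000112), and Cd200r3 fell by 2.46 and 1.55. Other markers went the opposite way to the sums: Hdc, the histamine-forming enzyme gene, rose by 1.32 (adjusted p 0.029) and 1.5 (adjusted p 0.0148). Cpa3, a mast cell carboxypeptidase gene, was at 1.01 (adjusted p 0.136) in set 5 and rose by 1.41 (adjusted p 0.0409) in set 6, and neither Hdc nor Cpa3 passed after centring in these sets. Their part in the cytokine differences of sets 5 and 6 was not tested.

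Of the 8 markers of group 2 innate lymphoid cells, which make IL-5 and IL-13, 3, 4 and 3 were higher in sets 3, 5 and 6 and 0 lower, and their sums ran from 10.74 to 11.71 in KO and 10.51 to 11.11 in WT libraries of set 3, from 12.89 to 13.18 against 11.98 to 12.24 in set 5 and from 13.28 to 13.50 against 12.59 to 13.18 in set 6. Of all genes 6.92%, 50.1% and 53.9% were called higher in sets 3, 5 and 6. The counts of 4 and 3 of 8 in sets 5 and 6 were thus not above the background. The innate lymphoid list shares Il1rl1 and Il17rb with the Th2 markers, and Th2 cells express several of its genes. Il7r, which T cells also express, was its highest gene in every group, and its mean level in set 5 was 12.97 for KO and 11.95 for WT libraries, close to the sums themselves. In that set Il1rl1, Rora and Nmur1 averaged 7.14, 7.20 and 4.49 in KO and 7.21, 7.33 and 5.19 in WT libraries, and none of these differences passed the test. Of 5 measured markers of NKT and gamma delta T cells, 1, 2 and 3 were higher, with Zbtb16 higher by 4.02, 3.34 and 2.77 in sets 3, 5 and 6. The counts of sets 5 and 6 were near the share of all genes. Prg2, the only eosinophil marker of 7 that was measured, was higher in set 3 but not without KO replicate 1. Macrophage and dendritic cell markers were called higher in 1 of 5 in each set (0 in set 3 without KO replicate 1), and CD8 markers in 0, 1 and 0 of 2. T cell markers were 4 of 7 lower in set 3, beside 4.46% of all genes, and 6 of 7 higher in sets 5 and 6. After centring 2 and 1 of 7 were higher, beside 24.9% and 18.8% of all genes. The part of these cells in the differences was not tested.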

How the data were processed

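The 18 libraries were poly(A)-selected and prepared with a directional NEBNext kit, per the labels' protocols. Salmon 1.9.0, edgeR, limma and GRCm39 are named in the submitters' processing notes without their roles; whether counting used strand was not stated in the sources used here. The authors deposited log2 values for 12547 genes; sorted from low to high, 97.0 to 98.4% of a group's values agreed exactly between its libraries, an equalization that narrows the replicate spread and may make p-values too small. The authors' deposited contrast table holds a test score and p-values; its log2 fold changes equalled differences of group means to within 8.3e-14.

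From the deposited log2 values, 1 linear model of 6 group means was fitted with limma 3.58.1 in R 4.3.3 (moderated test with variance trend, 12 residual degrees of freedom, Benjamini-Hochberg adjusted p under 0.05 over all genes per comparison). A filter of 0 or more in 3 libraries removed 0 genes. The test was checked on simulated data. Gene order and start regions come from annotation of GRCm38.p6; 3 of 4 members had a start region. The members, lists and rules were chosen with earlier results of these data known. Genes named are the members, the 5 most and 3 least correlated with each cytokine (1 of these is not reported here), the 3 called members of each Th2 list with the smallest adjusted p per direction and comparison, measured neighbours, and other members of the lists beside their counts.

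Replicate numbers were checked through deviations from group means. Between KO and WT of a set, r was -0.08 to 0.18 for equal numbers and -0.14 to 0.18 for unequal ones, and whether these libraries were paired is not labelled. Within a genotype, equal numbers of sets 5 and 6 deviated together (KO 0.22 to 0.34, WT 0.12 to 0.16). Set 3 with sets 5 and 6 gave 0.014 to 0.18 for equal and -0.15 to 0.061 for unequal numbers in KO cells. In WT cells these were 0.044 to 0.075 and -0.056 to 0.0063. A link of equal numbers across sets is thus hinted at by the data, and no label states it. Alternatives were quantile normalization, median centring, no variance trend, robust moderation, weighted libraries, other filters, 1 added on the linear scale, a minimum fold of 1.2, the compared groups alone, replicate blocks and leaving out each library.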

Additional observations from a re-analysis of the deposited data

Results flagged for a closer look

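The results here stood out because the knockout difference of a gene changed between sets by a direct test of that change. Il4 changed by -2.72 from set 3 to set 5 and by -2.54 from set 3 to set 6. Il13 changed by -1.76 and -1.97, and Il5 by -1.56 from set 3 to set 6. Rad50 changed by 0.36 from set 3 to set 6, a direction that reversed after median centring. The libraries of set 3 serve in each of these comparisons, so they are not independent of each other.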

How the results depend on the processing

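The higher levels of Il4, Il13 and Il5 in KO cells kept their direction and passed the test in all 3 sets under each of 19 alternatives per comparison. Their differences ranged from 4.01 to 5.14, 1.60 to 2.14 and 1.77 to 2.36 for Il4 in sets 3, 5 and 6, from 4.42 to 5.47, 2.73 to 3.32 and 2.58 to 3.09 for Il13, and from 3.82 to 4.43, 2.20 to 3.14 and 2.09 to 2.91 for Il5.

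The change of the Il5 difference from set 3 to set 5 passed the test with median centring (-1.63), quantile normalization (-1.73), 1 added on the linear scale (-1.46) and the replicate block, overall or within each genotype (-1.21 in both), and ranged from -1.52 to -0.92 without 1 library. From set 3 to set 6 the Il5 change ranged from -1.87 to -1.20 without 1 library. The replicate block changed no other call of the members.

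Rad50 depended on the scaling. Its KO minus WT difference in set 5 was -0.24 with median centring, with or without a minimum fold, and -0.25 with quantile normalization, and ranged from 0.10 to 0.26 without 1 library, passing without KO replicate 3. In set 6 it was 0.12 with centring, with or without the minimum fold, and 0.10 with quantile normalization. Its change from set 3 to set 5 was -0.43 with centring and -0.46 with quantile normalization, and -0.078 to 0.10 without 1 library; from set 3 to set 6 it was -0.074 with centring, with or without the minimum fold, -0.11 with quantile normalization, 0.36 and not called with the minimum fold, and 0.30 to 0.42 without 1 library. WT cells of sets 6 and 5 differed by -0.042 with centring, with or without the minimum fold, and -0.032 with quantile normalization. Differences near 0 also changed sign without 1 library for Il4 between KO cells of sets 5 and 3 (-0.40 to 0.34) and for the Il5 change from set 5 to set 6 (-0.65 to 0.010). The cause was not tested. Filters removed no gene.

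With the compared groups alone, set 3 gave 2 activators, 4 surface and effector markers, 7 other cytokine genes and 0 neighbours higher. A minimum fold of 1.2 gave 5 surface and effector markers in set 3, and 4 repressors and 4 neighbours in set 6. Without 1 library the lower repressors of set 3 numbered up to 2 (without KO replicate 2), as did the lower neighbours (without WT replicate 2). For these alternatives, and for the counts without 1 library in the sections above, the share of all genes called is not given. A changed count is thus not read as particular to a list. Depth is unknown, and low levels such as Il5 in WT cells of set 5 limit the size of its differences.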
